A study of Mus musculus with 8 samples.

Results

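The mouse replication-dependent histone genes sit in 3 chromosomal clusters, and SMC1 peaks in and around them were read from ChIP-seq of cultured cortical neurons. Members were the protein-coding genes of the RefSeq GRCm38.p6 table whose symbol or older synonym begins with Hist1h, Hist2h, Hist3h or Hist4h, or is H2ac, H2bc, H3c or H4c with a number. This gave 67 of 21887 protein-coding genes: 6 for the linker histone H1, 18 for H2A, 18 for H2B, 12 for H3 and 13 for H4. Of these, 66 lay on chromosomes 13, 3 and 11, and the remaining H4 gene, H4f16 (Hist4h4), on chromosome 6. Another 4 pseudogenes with such names were left out, and the testis H3 gene H3f4 beside the chromosome 11 genes carries no such name and is not a member.

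The NMDA group consisted of wild-type cortical neurons of Swiss-Webster mouse embryos (E16) at day 13 in vitro, given 50 µM NMDA, an agonist of a glutamate receptor class, in the bath for 10 min and then kept without it for 50 min. The resting group consisted of wild-type neurons of the same age in culture with no treatment. Each condition had 2 SMC1 ChIP samples and 2 inputs, 8 samples in all, and the deposited peak lists hold 1684 NMDA peaks and 12359 resting peaks that were found in both replicates. The labels name etoposide in the growth protocol, but no sample's treatment label carries it. The cultures are dissociated cortex, and a peak list gives no marker expression with which to check the cell type label. Peak strength is the authors' −log10 p of the peak caller summed over the 2 replicates, and it grows with library depth, which is unknown, so strengths were not compared between lists by a test.

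Most cellular histones come from these clustered genes, which are short, lack introns for the most part, and are transcribed mainly in S phase. Their messenger RNAs end in a stem-loop in place of a poly(A) tail, and they are made at a nuclear structure called the histone locus body. Neurons have left the cell cycle and rely largely on replication-independent histone genes outside the clusters. SMC1 is a subunit of cohesin, the ring that holds and extrudes chromatin loops and is often halted at sites of the insulator protein CTCF.

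SMC1 peaks were found between and beside the histone genes, and no histone promoter that could be examined carried one. In the NMDA list 0 and in the resting list 0 of the 62 histone genes with an entry in the RefSeq promoter table had a peak over the window from 250 bases before to 50 after the start. Over all 17492 protein-coding genes in that table, 5% had an NMDA peak and 12.7% a resting peak over such a window. Among genes with a body under 2 kb, without olfactory and vomeronasal receptor genes, the shares were 1.29% for NMDA and 2.84% for resting peaks (1163 genes). Histone genes are of this size, with a median body of 492 bp and 61 of 67 under 2 kb. The absence of promoter peaks is therefore to be read against the lower pair of shares, and 0 of 62 is near these. The 5 members without an entry are H3c7, H2bc4, H3c1, H2bc21 and H4c14.

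Promoter letters of the histone genes were set beside those of promoters with peaks, in the 250 bases before each start and on both strands. The CCAAT box (CCAAT) was in all 6 H1, 18 H2A and 17 H2B windows, in 8 of 10 H3 windows and in 3 of 12 H4 windows, against 35.4% of all 21263 windows of protein-coding genes. The octamer (ATTTGCAT), the site of the factor Oct-1, was in 7 of 18 H2A and 7 of 17 H2B windows, in 0 windows of the other classes and in 1.58% of all windows. The TATA box (TATAAA) was in 29 of 63 histone windows (46.0%), against 11.6% of all. The E2F core (TTTNGCGC) was in 4 H2A and 7 H2B windows, against 1.43% of all. In 10 divergent pairs of an H2A and an H2B gene the starts lay 164 to 281 bp apart, so windows of a pair share bases and matches. Matches to different motifs overlapped in 0 histone windows.

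The CTCF core motif was in 0 of 63 histone windows, in 0.527% of all windows, in 1.59% of windows with an NMDA peak and in 2.1% of those with a resting peak. The TATA box was in 3.98% of windows with an NMDA peak and 5.43% of those with a resting peak. A match describes letters and does not show that a factor was bound.

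**Figure D1:**
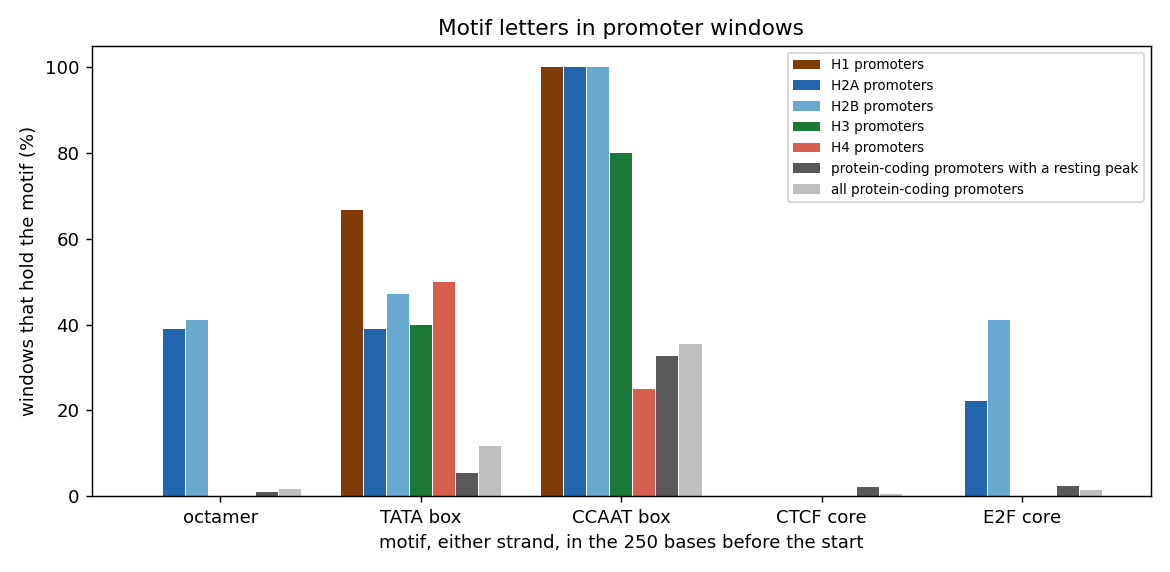
Share of promoter windows (vertical axis, percent, bars from 0) that hold each motif on either strand in the 250 bases before the start, for the histone classes (6 H1, 18 H2A, 17 H2B, 10 H3 and 12 H4 windows), for the 2522 protein-coding windows with a resting peak and for all 21263. The CCAAT box is in every H1, H2A and H2B window, and the octamer is in H2A and H2B windows alone among the histone classes.

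Promoters of 4 histone genes with a peak nearby and of 2 related genes under a peak are given so that the letters can be set side by side. They do not divide by these motifs: H4c8 holds none, H3f3a holds a CCAAT box like H1f2, the CTCF core is in Lsm11 alone, and the TATA box (TATAAA) is in 0 of these windows. The following are the 250 bases before the start, read 5′ to 3′ from the RefSeq promoter table of GRCm38.p6, with matches to the 5 motifs in capitals. H2ac13 (chr13:21716162-21716411, plus strand) belongs to a divergent pair with H2bc13, next to which a resting peak lay, and its window holds 4 CCAAT boxes. H2ac12 (chr13:22035644-22035893, minus strand) is the member nearest to the NMDA peak, with 1 octamer and 3 CCAAT boxes. H1f2 (chr13:23738557-23738806, plus strand) has 1 CCAAT box and is the member nearest to the strongest resting peak of the distal block. H4c8 (chr13:23530794-23531043, plus strand), an H4 gene 5831 bp from a resting peak by its window, holds 0 matches to the 5 motifs. Lsm11 (chr11:45944936-45945185, minus strand), a gene of histone mRNA processing, had peaks of both lists over all 250 bases and holds 1 CTCF core motif. H3f3a (chr1:180813606-180813855, minus strand), a replication-independent H3 gene, had an NMDA peak over all 250 bases and a resting peak over 188, and holds 1 CCAAT box.
H2ac13: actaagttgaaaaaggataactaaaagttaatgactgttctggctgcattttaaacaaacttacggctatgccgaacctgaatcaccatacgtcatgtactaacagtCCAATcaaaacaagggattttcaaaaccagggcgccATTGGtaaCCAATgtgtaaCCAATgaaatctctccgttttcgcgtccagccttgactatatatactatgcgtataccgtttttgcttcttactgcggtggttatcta
H2ac12: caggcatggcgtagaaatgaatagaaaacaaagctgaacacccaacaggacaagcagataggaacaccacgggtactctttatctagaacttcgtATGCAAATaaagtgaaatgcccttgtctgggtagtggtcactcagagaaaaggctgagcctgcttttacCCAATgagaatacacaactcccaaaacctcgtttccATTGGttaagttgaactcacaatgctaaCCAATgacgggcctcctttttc
H1f2: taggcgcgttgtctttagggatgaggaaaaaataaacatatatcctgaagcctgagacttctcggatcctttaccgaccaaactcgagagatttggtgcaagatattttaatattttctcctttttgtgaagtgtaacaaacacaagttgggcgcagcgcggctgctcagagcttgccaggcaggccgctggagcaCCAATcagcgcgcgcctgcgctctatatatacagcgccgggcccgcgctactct
H4c8: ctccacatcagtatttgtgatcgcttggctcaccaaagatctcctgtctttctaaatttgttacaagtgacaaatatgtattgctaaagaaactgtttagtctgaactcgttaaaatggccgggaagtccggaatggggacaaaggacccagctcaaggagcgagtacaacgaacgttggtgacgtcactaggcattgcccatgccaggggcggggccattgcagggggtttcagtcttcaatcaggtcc
Lsm11: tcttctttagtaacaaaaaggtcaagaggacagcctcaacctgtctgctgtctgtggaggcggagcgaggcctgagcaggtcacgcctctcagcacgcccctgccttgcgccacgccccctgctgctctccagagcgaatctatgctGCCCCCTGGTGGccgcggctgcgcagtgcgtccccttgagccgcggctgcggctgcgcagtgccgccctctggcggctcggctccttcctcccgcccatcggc
H3f3a: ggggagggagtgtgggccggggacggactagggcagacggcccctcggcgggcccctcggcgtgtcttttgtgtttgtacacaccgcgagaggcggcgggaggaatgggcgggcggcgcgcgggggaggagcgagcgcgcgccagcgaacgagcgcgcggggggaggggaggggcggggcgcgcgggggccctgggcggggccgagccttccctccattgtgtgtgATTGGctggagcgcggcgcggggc

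Histone genes have near-identical copies, and a read that falls in such a copy cannot be placed by its sequence. Of the 63 histone windows 14 held a word of 36 bases that also occurs in another promoter window (22.2%, against 10.5% of all windows). On average 14.3% of their words were repeated, against 5.38% in all windows and 0.0576% in windows with a resting peak. H2bc23 and H4bc24 had every word repeated, and H4c17 and H4c18 94.3% each. How reads with several matches were treated is not given in the sources used here, and the part of repeated sequence in the missing promoter peaks was not tested. The other 49 histone windows held no 36-base word of another promoter window, and none of them overlapped a peak. Their words were not compared with the rest of the genome, so whether reads there could be placed was not tested. Among short genes without receptor genes only 2.84% had a resting peak over the promoter window. A count of 0 in 49 windows is near that share and does not bear on repeated sequence.

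Member genes less than 1 Mb apart were joined into 4 blocks, 2 of them on chromosome 13. The proximal chromosome 13 block ran from 21715711 to 22043658 with 23 members, and the distal block from 23531044 to 23934913 with 31. The chromosome 3 block ran from 96219885 to 96270192 with 10 members, and the chromosome 11 block from 58948911 to 58955192 with H2bu2 (Hist3h2ba) and H2aw (Hist3h2a). In the blocks and 50 kb on either side there was 1 NMDA peak and there were 8 resting peaks, of which 1 NMDA peak and 5 resting peaks lay inside a block. The chromosome 11 block had none of either kind.

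**Figure D2:**
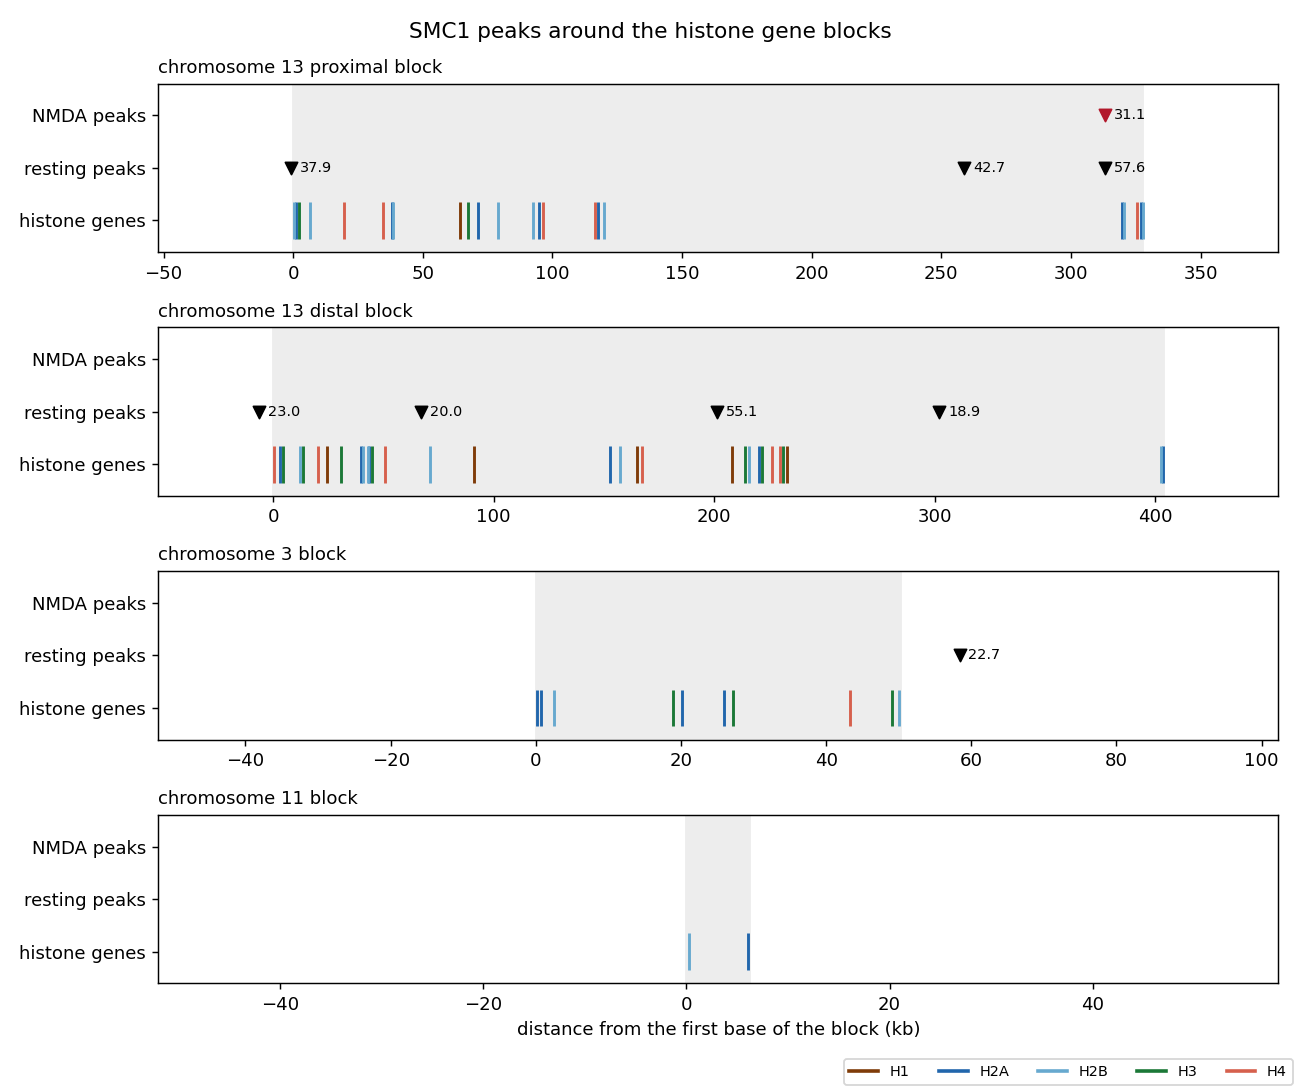
Positions of histone genes (bars, coloured by class) and of SMC1 peaks (triangles, NMDA above resting, with their summed −log10 p) in each block, shaded, and 50 kb on either side. The horizontal axis is the distance in kb from the first base of the block, on a separate scale for each block. The NMDA peak stands over the resting peak of 57.6, and no peak lies within the chromosome 3 and 11 blocks.

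By length the blocks held slightly more peaks than the chromosomes as a whole, while per gene they held fewer within 10 kb. The blocks with their margins spanned 1190 kb and held 0.0841 NMDA peaks and 0.673 resting peaks per 100 kb, against 0.0623 and 0.457 over the annotated span of all chromosomes. They held 7.74 protein-coding genes per 100 kb, against 0.81 over all chromosomes. An NMDA peak lay within 10 kb of 2 of 67 histone genes (2.99%), against 8.94% of all protein-coding genes. For resting peaks the count was 12 of 67 (17.9%), against 38.2%. The share of histone genes minus that of all protein-coding genes was -5.96 points for NMDA peaks and -20.3 points for resting peaks. Within 1 kb of the gene body, 0 histone genes had an NMDA peak (6.92% of all protein-coding genes and 1.84% of short genes without receptor genes did) and 2 a resting peak (27.1% and 5.09%). Within 2 kb the counts were 0 for NMDA peaks and 3 for resting peaks (4.48%). The NMDA and resting shares were 7.21% and 28.6% of all protein-coding genes. Of short genes without receptor genes they were 2.19% and 6.29%.

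The direction of these differences depended on the genes they were set against, for resting peaks also on the distance, and for NMDA peaks also on the IDR limit. IDR is the irreproducible discovery rate, the authors' measure of agreement between replicates, at most 0.05 in the lists. At an IDR up to 0.01 the difference for NMDA peaks turned to 1.04 points, and within 50 kb it was -9.4 points. Against genes under 2 kb without receptor genes, of which 2.9% had an NMDA peak and 13.7% a resting peak within 10 kb, the histone genes were 0.0855 points higher for NMDA peaks and 4.19 points higher for resting peaks. Within 50 kb, 5 of 67 histone genes had an NMDA peak (7.46%, against 16.9% of all protein-coding genes and 8.91% of the short ones) and 49 of 67 a resting peak (73.1%, against 62.4% and 37.3%), so for resting peaks the histone genes were then 10.8 points above all protein-coding genes. The median distance to the nearest NMDA peak was 356 kb for histone genes and 343 kb for all protein-coding genes. For resting peaks it was 27.9 kb for histone genes, 24.2 kb for all protein-coding genes and 96.6 kb for short genes without receptor genes. No test was run on these counts, since neighbouring members share peaks and each condition has 1 list.

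**Figure D3:**
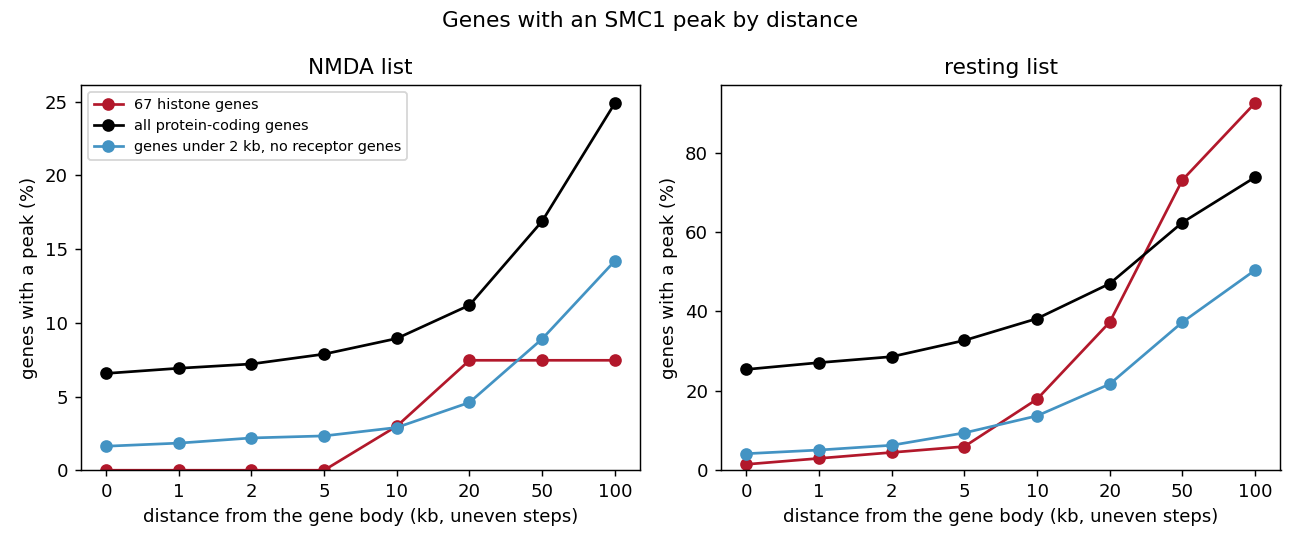
Share of genes with a peak (vertical axis, percent) by the distance allowed from the gene body (horizontal axis, kb, in uneven steps) in the NMDA list and the resting list, for the 67 histone genes, all protein-coding genes and genes under 2 kb without receptor genes. In the resting list the histone genes run from 5.97% at 5 kb to 73.1% at 50 kb, crossing the line of all protein-coding genes between 20 and 50 kb.

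The 12 genes with a resting peak within 10 kb rested on 6 peaks, and the 2 with an NMDA peak on 1. By class, 5 of 18 H2B genes had a resting peak, 3 of 18 H2A genes, 2 of 12 H3 genes, 1 of 6 H1 genes and 1 of 13 H4 genes. The 5 H2B genes include H2bc6, counted because its peak lies inside an annotated body of 37455 bp. It is also 1 of the 2 genes with a resting peak within 1 kb. The 2 genes with an NMDA peak were 1 H2A and 1 H2B gene, and both also had a resting peak. Thus 2 of the 12 histone genes with a resting peak within 10 kb also had an NMDA peak. Across all protein-coding genes with a resting peak within 10 kb, 1593 of 8371 (19%) did. No difference between classes was tested.

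The site found in both conditions lay near H2ac12 (Hist1h2ah) and H2bc12 (Hist1h2bk), a divergent pair that encodes an H2A and an H2B protein. The NMDA peak, on chromosome 13 at 22028472 to 22029340, had replicate values of 22.1 and 9.05 and a strength of 31.1, and 85.3% of NMDA peaks were weaker. The resting peak under it, at 22028693 to 22029252, had 39.0 and 18.6 and a strength of 57.6, and 89.0% of resting peaks were weaker. In both lists the first replicate column was the higher, by 2.44 times after NMDA and 2.1 times at rest. The columns carry no replicate numbers.

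Both peaks lay on the 3′ side of H2ac12, 5782 bp from the gene for the NMDA peak and 5870 bp for the resting peak, and overlapped n-TIaat7, a transfer RNA gene. A second transfer RNA gene, n-TTagt1, lay within 1 kb. The resting peak here was the 1 of 8 in the blocks that overlapped an NMDA peak (12.5%), against 10.7% of all resting peaks. That share is near the background, and of all NMDA peaks 75.8% overlapped a resting peak.

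The peak closest to an end of a histone gene was at the outer edge of the proximal block, 390 bp beyond the 3′ end of H2bc13 (Hist1h2bl), an H2B gene on the minus strand. This resting peak at 21714762 to 21715321 had replicate values of 10.2 and 27.7 and a strength of 37.9, above the list median of 30.2. Within 10 kb it also met H2ac13 (Hist1h2ai) at 1091 bp, the H3 gene H3c10 (Hist1h3h) at 2307 bp and H2bc14 (Hist1h2bm) at 6723 bp. The next resting peak followed only after 259 kb, and 18 histone genes from H2bc13 to H4bc24 stood between them with no peak of either list. H4bc24 is the table's symbol for Hist1h2br, counted here with H2B. The stretch holds the most repeated promoter windows, those of H2bc23, H4bc24, H4c17 and H4c18, beside others with no repeated word. Whether repeated sequence bears on the lack of peaks there was not tested.

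That next peak, at 21974101 to 21974859, had replicate values of 16 and 26.7 and a strength of 42.7. It lay in the part of the block without histone genes, 173 bp from the transfer RNA gene n-TMcat8 and 60.3 kb from the nearest member, H2ac12. The proximal block held 31 transfer RNA genes, all of them in this part without histone genes, between H4bc24 and H2ac12. Of the 48 transfer RNA genes in all blocks and margins, an NMDA peak lay within 1 kb of 2 (4.17%, against 4.17% of all 408 in the table) and a resting peak within 1 kb of 3 (6.25%, against 10.8%). Of the resting peaks in the blocks 2 of 8 had a transfer RNA gene within 1 kb, as did 0.243% of all resting peaks. These 2 shares are not on an equal footing. The blocks and margins held 48 of the 408 transfer RNA genes in 1190 kb of an annotated span of 2700 Mb. Without peaks at transfer RNA genes, a choice made after seeing the data, 0 histone genes kept an NMDA peak within 10 kb and 10 a resting peak.

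In the distal chromosome 13 block there were 4 resting peaks and no NMDA peak. The strongest lay 5919 bp on the 5′ side of H1f2 (Hist1h1c), which encodes linker histone H1.2. The annotated gene nearest to it was the pseudogene Gm11338, at 2075 bp. This peak spanned 23732300 to 23732888 with replicate values of 13.6 and 41.6 and a strength of 55.1, higher than 87.6% of the resting list. Its second replicate column was 3.06 times the first, the widest gap among the 9 peaks of the blocks.

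The other 3 were in the weaker part of the list. A peak at 23524647 to 23524963 had 7.2 and 15.8 (strength 23.0) and lay 6081 bp on the 5′ side of H4c8 (Hist1h4h), the first H4 gene of the block, and 8912 bp from H2ac10 (Hist1h2af). Closer to this peak were the long noncoding RNA gene Gm11335, at 1411 bp, and the transfer RNA gene n-TRtcg1, at 1493 bp. A peak at 23597992 to 23598305 had 12.4 and 7.61 (strength 20.0) and was the 1 peak inside the annotated body of a member, H2bc6 (Hist1h2be), which the table extends over 37455 bp. It overlapped neither of that gene's promoter windows, and it also overlapped the long noncoding RNA gene Gm33387. The fourth, at 23833019 to 23833427, had 11.5 and 7.44 (strength 18.9) and lay 3495 bp from Slc17a3, a solute transporter gene, and 68.6 kb from the nearest histone gene, H1f1 (Hist1h1a).

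Between the peaks near H4c8 and inside H2bc6, 14 histone genes of all 5 classes stood in 73.0 kb with no peak among them. The testis pair H2bc1 and H2ac1 at the far end of the block, known in testis as Th2b and Th2a, also had no peak within 10 kb. On chromosome 3 the 10 members from H2ac21 to H2bc18 had no peak between them. Here too some promoter windows were largely repeated (80.8% of words in H3c14 and H3c15, 69.4% in H2ac18 and H2ac19) and others not at all. A resting peak at 96277838 to 96278774, with 8.91 and 13.8 (strength 22.7), lay 7646 bp on the 3′ side of H2bc18 (Hist2h2bb) and 8683 bp from the H3 gene H3c13 (Hist2h3b). The gene nearest to it was Fcgr1, an immunoglobulin Fc receptor gene, at 4135 bp. H4f16 on chromosome 6 had no peak of either list within 10 kb.

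**Figure D4:**
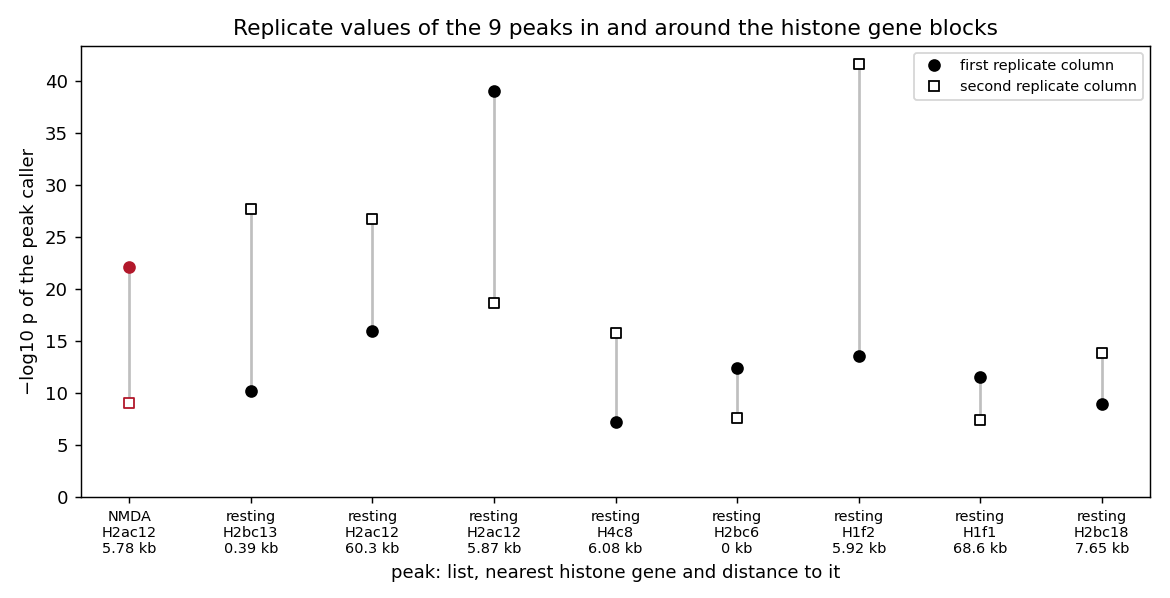
Peak caller −log10 p by replicate column (vertical axis) for the NMDA peak and the 8 resting peaks of the blocks, labelled with the nearest histone gene and its distance. The first column was the higher at the NMDA peak and at 3 of 8 resting peaks, the second at 5 of 8, and the widest gap is at the peak near H1f2 (13.6 and 41.6).

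The 8 resting peaks of the blocks ranged from 18.9 to 57.6 with a median strength of 30.5, beside 30.2 for the whole resting list, and 4 of them were above that list median. Their median width was 560 bp, against 644 bp in the whole list. At an IDR up to 0.01, 1 NMDA peak and 4 of the 8 resting peaks remained: those near H2bc13, n-TMcat8, n-TIaat7 and H1f2. Of the 26 other protein-coding genes of the blocks, 0 had an NMDA peak within 10 kb, against 8.94% of all protein-coding genes, and 4 a resting peak (15.4%, against 38.2%). The 4 were Pom121l2, Slc17a2, Slc17a3 and Fcgr1.

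Genes that work on histone genes and their messengers were set beside the clusters, from 3 lists chosen for this purpose. Of 25 genes of histone gene regulation and mRNA 3′ end processing, 5 had an NMDA peak within 10 kb (20.0%, against 8.94% of all protein-coding genes) and 9 a resting peak (36%, against 38.2%). Over promoter windows, 3 of 20 had an NMDA peak (15.0%, against 5% of all protein-coding genes in the promoter table) and 3 of 20 a resting peak (15.0%, against 12.7%). The resting shares are near the background. The NMDA shares rest on 5 and 3 genes of a chosen list, were not set against genes of like length and were not tested. No difference between this list and the histone genes was tested either.

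The promoter of Lsm11, which encodes a subunit of the U7 particle that cuts histone messengers, was the 1 of the list with a peak in both conditions. The NMDA peak at 45944493 to 45945292 on chromosome 11 had 23.7 and 9.56 (strength 33.3), and the resting peak at 45944590 to 45945207 had 25.2 and 16 (strength 41.2). Slbp, which encodes the protein that binds the stem-loop of histone messengers, had an NMDA peak over its promoter (10.2 and 8.03, strength 18.3) and no resting peak within 10 kb. Cpsf3, the gene of the endonuclease that makes the cut, had an NMDA peak over its promoter (18.2 and 6.15, strength 24.3) and a resting peak of 21.8 at its other end, 1189 bp away. Cdk2, the kinase gene whose product acts with cyclin E on the histone gene activator NPAT, had peaks of both lists near it (NMDA 23.0, resting 21.5). The cap-binding protein gene Ncbp2 had an NMDA peak of 20.8 (14.1 and 6.69) across an end of the gene and no resting peak within 10 kb.

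Resting peaks of this list were strongest near Eri1, the gene of an exonuclease that trims histone messengers (65.0, 3360 bp away), near Srrt (47.2) and at the promoter of Pou2f1, the gene of Oct-1 (41.7). No peak of either list lay within 10 kb of Npat or of Casp8ap2, genes of core proteins of the histone locus body. Of the 25 genes, 14 had neither.

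Replication-independent histone genes outside the clusters had an NMDA peak within 10 kb in 1 of 11 cases (9.09%, against 8.94% of all protein-coding genes) and a resting peak in 5 of 11 (45.5%, against 38.2%), both near the background. The 1 with both was H3f3a, a gene of the variant H3.3, with an NMDA peak of 23.7 (14.6 and 9.05) over its promoter and 2 resting peaks. The stronger resting peak, of 25.3 (17.0 and 8.28), lay in the gene body, and the weaker one lay over the promoter. H2ax, the gene of the variant marked at DNA breaks, had a resting peak of 35.1 that covered most of the annotated gene. H1f0, a linker histone gene of differentiated cells, had one of 27.6 at 7249 bp, and Macroh2a1 one of 17.8. H3f3b, the other H3.3 gene, and H2az1 had none.

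Of 12 histone chaperone genes 1 had an NMDA peak (8.33%) and 3 a resting peak (25.0%), beside 8.94% and 38.2% of all protein-coding genes. Asf1a, a chaperone gene for H3 and H4, had an NMDA peak over its promoter (7.77 and 13.4, strength 21.2) and no resting peak. Cabin1 (38.5) and Hira (24.0), whose products belong to the complex that deposits H3.3, had resting peaks, Hira at its promoter, and Asf1b had one of 19.3. None of these 3 had an NMDA peak.

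**Figure D5:**
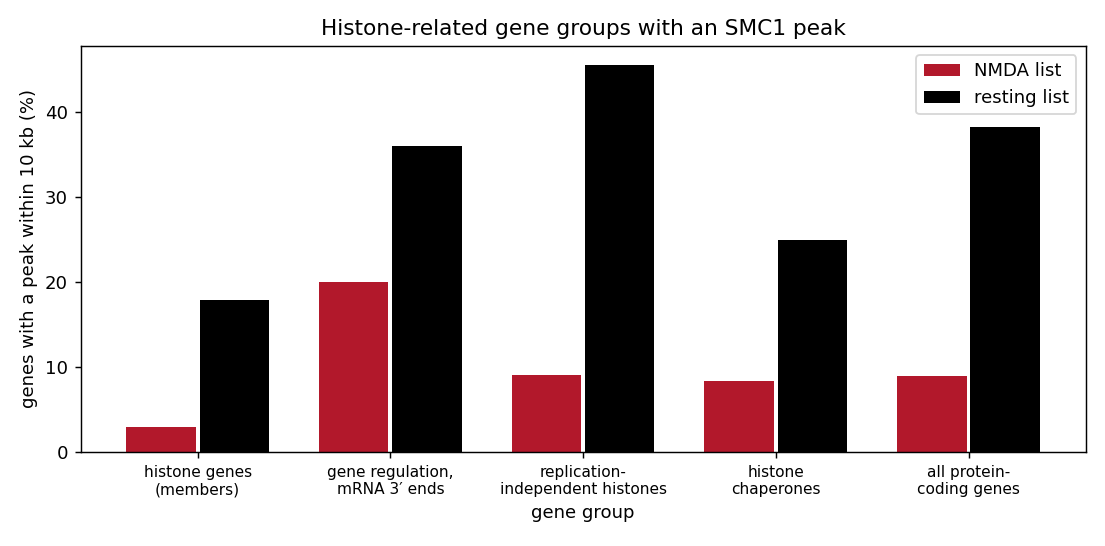
Share of genes with an NMDA peak and with a resting peak within 10 kb (vertical axis, percent, bars from 0) for the 67 histone genes (66 in the blocks and H4f16), 25 genes of histone gene regulation and mRNA 3′ ends, 11 replication-independent histone genes, 12 histone chaperone genes and all protein-coding genes. The histone genes have 2.99% and 17.9%, below all protein-coding genes (8.94% and 38.2%) but not below genes under 2 kb without receptor genes, which are not plotted (2.9% and 13.7%).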

How the data were processed

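SMC1 ChIP-seq peak lists of NMDA-treated and resting mouse cortical neurons were used. Per the submitters' processing notes, the builds were mm10 and GRCm38.p6 and the tools MACS2, BWA, SAMtools, Trimmomatic and FastQC, with no version given. The authors deposited 1 list per condition in the 20-column layout of the irreproducible discovery rate (IDR) tool. Each line of the deposited lists gives 2 replicate values of −log10 p and their sum, called strength here, and the global IDR, which is at most 0.05. The fold enrichment field is a placeholder, so the planned measure was replaced by strength. Depth is unknown and the input samples were not analysed here.

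Groups came from the sample titles. Python 3.11.15, pandas 2.3.3 and numpy 2.4.6 were used. Genes, starts and promoter sequences came from RefSeq GRCm38.p6 tables, which give no exons. Distances run from the gene body, overlap means 1 bp or more, and a peak belongs to a block if it overlaps it or 50 kb on either side. Named genes were members with a peak within 1 kb or near a named peak, every peak of the blocks, and in each of the 3 further lists all genes with an NMDA peak and up to 4 with the strongest resting peak. Npat, Casp8ap2, H3f3b, H2az1, the other members near a peak and the genes of the repeated windows were named after their values were seen. Members and lists were chosen with earlier results of these data known. One listed symbol, H3f5, matched no gene. The search functions were tested on simulated peaks. Counts carry no test, because members share peaks, and the smallest exact p of 2 against 2 replicates is 0.33.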

Additional observations from a re-analysis of the deposited data

How the results depend on the processing

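No paired analysis was possible because the replicate columns carry no numbers and no result comes from a test, and no replicate could be left out because a listed peak had to be found in both. Within 2 kb the histone genes with an NMDA peak, with a resting peak and with both numbered 0, 3 and 0, and within 50 kb 5, 49 and 5, against 2, 12 and 2 within 10 kb. At an IDR up to 0.01 the genes with a resting peak numbered 7 and the resting peaks of the blocks 4, and 5 of the 8 resting peaks lay inside the blocks. Without peaks at transfer RNA genes 0 genes had an NMDA peak. The difference from all protein-coding genes for NMDA peaks, -5.96 points, turned to 1.36 against genes under 2 kb, to 0.0855 with receptor genes also left out and to 1.04 at an IDR up to 0.01, and was -9.4 within 50 kb. That for resting peaks, -20.3 points, turned to 9.55 and 4.19 against the same short genes and to 10.8 within 50 kb, and was -13.0 at an IDR up to 0.01. The background share within 10 kb was 1.63% for NMDA and 8.36% for resting peaks in genes under 2 kb, 2.9% and 13.7% with receptor genes also left out, and 9.58% and 40.9% without receptor genes alone. The median strength of resting peaks was 30.5 with the margins and 42.7 inside the blocks alone. Strength sums both replicate columns, so a single column is lower by construction. The single columns gave 12 and 17.2 for the resting peaks and 22.1 and 9.05 for the NMDA peak. The cause of the other shifts was not tested beyond what each setting changes. The count of NMDA peaks in the blocks (1) and of resting peaks that overlap one (1) was the same under every alternative tried for it.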
